A study of Mus musculus with 860 samples.

Results

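Cluster 2 of the deposited annotation is a Louvain cluster of hematopoietic cells from the mouse aorta-gonad-mesonephros (AGM) region. The cells described here are those of cluster 2 that were sorted as GFI1+ IAHC, the GFI1-positive cells of the intra-aortic hematopoietic clusters, and the comparison asks how they differed between the embryonic days E11.5 and E10.5. They numbered 81 of 860 sequenced cells, 39 at E11.5 and 42 at E10.5. Membership was taken from the annotation and used no contrast between the stages. The embryos carried the Gfi1:tomato reporter, the labels give the strain as CD1/Gf1+, and no embryo was treated. Pooled AGMs were dissociated, and CD31+cKIT+GFI1+ cells were index sorted into plates, with antibody and reporter signals stored for each well. Each cell gave 1 Smart-Seq2 library. The reporter reads out Gfi1 and is carried by both stages alike.

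The annotation assigns the cells to 4 named batches. The authors describe 2 independent sorting experiments, and the labels used here do not say whether a batch was a separate sort. Batch GL78 was the only one with such cells of both stages. It held 15 cells at E11.5, from embryos of 48 to 49 somite pairs, and 36 cells at E10.5, from embryos of 32 to 33 somite pairs. The main comparison was made there. In GL78 each stage had a plate of its own, so stage and plate cannot be told apart. The other batches are shown beside it: 22 cells of GL53 and 2 of GL58 at E11.5, against 6 cells of GL69 at E10.5, all without somite counts in the labels. No embryo is named for any cell, so each stage of GL78 was 1 sample, which allows no test within GL78. The other batches held cluster 2 GFI1+ IAHC cells of 1 stage each, and no test was run across batches. Levels are given as summed counts scaled to a total of 1000000 (CPM) with exact 95% Poisson intervals that cover counting error only, since reads carried no molecular identifiers.

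Hematopoietic stem and progenitor cells of the embryo arise from hemogenic endothelium, a part of the aortic wall, by an endothelial-to-hematopoietic transition. Cells leaving the wall form clusters in the lumen, lose endothelial genes such as Cdh5 and gain the pan-leukocyte surface protein CD45, the product of Ptprc. Notch signaling acts through membrane ligands of the Jagged and Delta-like families on the receptors of neighboring cells, and Gata2 and Hes1 are among its targets in this tissue.

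Most markers went with the hematopoietic label of cluster 2, and some were shared with the cells outside it. Over both stages of GL78, Runx1, a transcription factor needed for blood formation, had reads in 50 of 51 cells, against 9.60% of the GFI1+ IAHC cells of the same plates outside the cluster (74 at E11.5 and 51 at E10.5), and the leukocyte actin regulator Coro1a in 51 against 22.4%. The endothelial receptor Aplnr had reads in none of the cells in the cluster and in 84% of those outside it. In summed CPM all 16 hematopoietic markers were higher in the cluster and all 8 endothelial markers lower. Endothelial transcripts were nevertheless present, with Pecam1 in 44 and Cdh5 in 30 of the 51 cells, and the arterial genes Gja4 and Gja5 had reads in a higher share of cells inside (25.5% and 23.5%) than outside (19.2% and 4.8%). The hematopoietic markers Kit, Mecom and Mllt3 had reads in 82.4%, 60% and 44% of the cells outside. Since the clusters were made from these genes, this describes the cluster and does not test it. The GL78 libraries held 406381 to 893636 counts (median 605460.0) at E11.5 and 394471 to 1160883 (median 872838) at E10.5, and 9475697 and 30121921 counts in sum. The median number of genes detected was 6532 at E11.5 and 8495 at E10.5, or 5264 and 6925 after each cell was thinned to 100000 counts. The median mitochondrial share was 2.06% and 1.13%. The stages also differed in markers of sex. Xist, the RNA of the inactive X, reached 5 CPM in 14 of 15 E11.5 cells and 12 of 36 E10.5 cells, and Y-linked genes did so in 0 and 24 cells. No 2 of the 81 libraries were identical.

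The surface proteins differed widely between the stages. CD45 fluorescence at E11.5 ran from 2765 to 34076 (median 19093, arbitrary units of the sorter, n = 15 cells), and at E10.5 from 245.78 to 14606 (median 826, n = 36). All 15 E11.5 cells lay above the E10.5 median, 10 of them above the highest E10.5 cell, and 7 of the 36 E10.5 cells reached the lowest E11.5 value. CD31, the endothelial adhesion protein encoded by Pecam1, went the other way. It ran from 1618 to 13985 (median 4077) at E11.5 and from 1338 to 65623 (median 19540.1) at E10.5, and all 15 E11.5 cells were below the E10.5 median. Among the GFI1+ IAHC cells outside cluster 2 on the same plates, median CD45 was 943 at E11.5 (74 cells) and 559 at E10.5 (51 cells), and median CD31 was 39703 and 31753, higher at E11.5.

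The signal of DLL4, a Notch ligand, was lower as well, but its medians were around or below 0 at both stages. Its signal had a median of -339 (-717.43 to 56.8) at E11.5 and 14.3 (-219.54 to 260.66) at E10.5, and 11 of 15 E11.5 cells lay below every E10.5 cell. In GL53 its median was -226.4. Compensation is not stated, and whether such values reflect surface protein was not tested. For the reporter and the other signals the stages overlapped more. The GFI1 signal had a median of 854 at E11.5 and 1537 at E10.5, CD41 had 854 and 1329.6, cKIT 1189 and 978, JAG1 5305 and 6642, and NOTCH1 417 and 469. NOTCH2 signals were around or below 0, with medians of -241 and -65.3. Of the 15 E11.5 cells, at most 3 lay outside the E10.5 range for any of these 6 signals. In GL53, the other batch with index values for many cells, E11.5 CD45 had a median of 9619 and ran from 904 to 30405, and CD31 had a median of 8372 and an upper quartile of 45910. There, 18 of 22 cells reached the lowest E11.5 CD45 value of GL78. In GL69, 1 cell had index values, with CD45 at 4521.

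**Figure D1:**
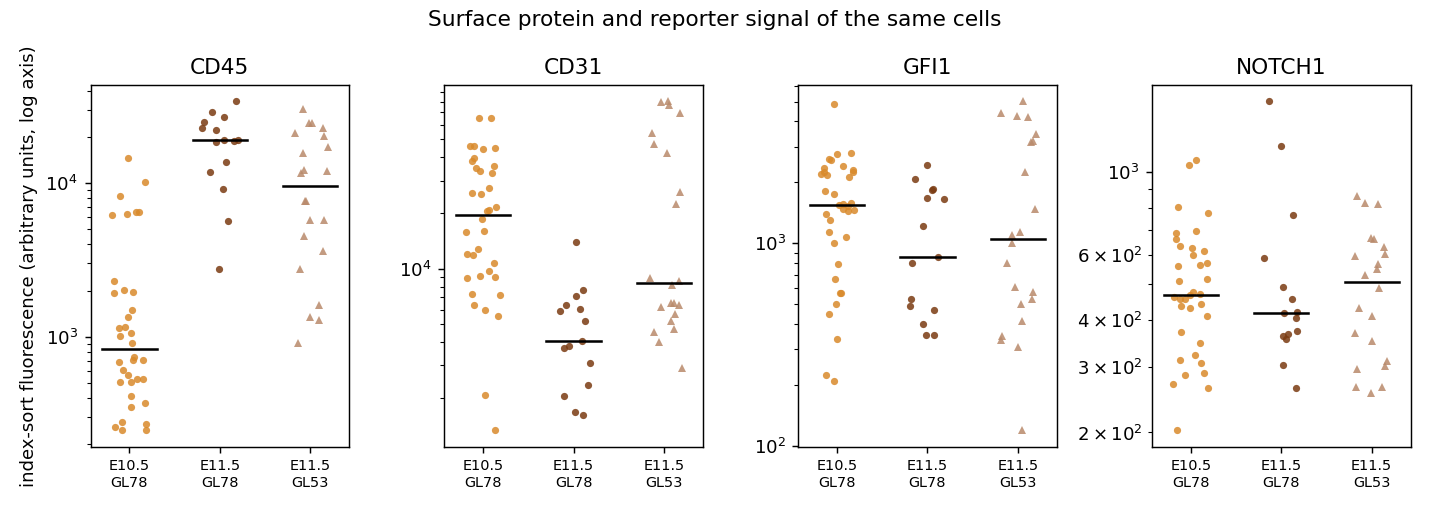
Index-sort fluorescence (log axis, arbitrary units of the sorter) of CD45, CD31, the GFI1 reporter and NOTCH1 in each cluster 2 GFI1+ IAHC cell of GL78 at E10.5 (36 cells) and E11.5 (15 cells) and of GL53 at E11.5 (22 cells), with a line at the median. CD45 is higher and CD31 lower in the E11.5 cells of GL78, and GL53 spans both ranges.

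Many endothelial transcripts had no read in the E11.5 cells of GL78. The summed level of 20 general endothelial genes had a median of 325.9 CPM per cell at E11.5 (0 to 2442) and 3484 at E10.5 (228.1 to 8773). Cdh5, which encodes VE-cadherin, had 0 counts in all 15 cells, and at E10.5 had reads in 30 of 36 cells, with a median of 169.3 and a highest cell of 613 CPM. Summed, this was 166.1 CPM (161.6 to 170.8) at E10.5. Against a floor of 3 counts over the E11.5 cells, it was at least 525-fold lower at E11.5. All 30 E10.5 cells with reads were thus above every E11.5 cell, and the other 6 were at 0 as well.

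The same held for Ramp2, a co-receptor of the endothelial peptide adrenomedullin, at 0 and 368.4 CPM (at least 1164-fold lower), for Vwf, which encodes von Willebrand factor, at 0 and 329.5 CPM (at least 1041-fold), for the tight junction gene Cldn5 at 0 and 219.3 CPM (at least 693-fold), and for the VEGF receptor gene Kdr at 0 and 57.7 CPM (at least 182.2-fold). Esam, an endothelial adhesion gene that hematopoietic stem cells also use, had reads in 3 of 15 and 31 of 36 cells and 31.1 against 428 CPM. A called difference here means at least 10 CPM in the higher stage, reads in at least 25% of its cells and at least 2-fold, with all cells and with any 1 cell left out. By that rule, 14 of the 20 general endothelial genes were lower at E11.5 and 0 were higher, against 15.7% of all 9310 genes tested called lower and 10.505% called higher. Their median log2 ratio of E11.5 over E10.5 was -3.17 (-4.21 to -3.04 with any 1 cell left out), beside -0.09 over all genes tested. Pecam1 was not called, with reads in 11 of 15 and 33 of 36 cells and 106.5 and 198.6 CPM.

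Arterial genes were also lower, with 7 of 11 measured members called lower, 0 higher and a median log2 ratio of -3.67 (-5.21 with members at 0 set to their bound). Nrp1, a VEGF co-receptor, stood at 0 and 101.99 CPM, and the gap junction genes Gja4 and Gja5 at 0 and 67.1 and at 0 and 22.9 CPM. Of the transcripts of other cells of the AGM, Acta2, the smooth muscle actin gene of mural cells, moved with the endothelial genes. It had reads in 0 of 15 cells at E11.5 and 21 of 36 at E10.5, where it stood at 247.3 CPM (at least 781-fold lower at E11.5) against 166.1 for Cdh5, and at 11.7 and 36.4 CPM in the other batches and 0 and 5.57 outside cluster 2. The summed level of 12 mesenchymal and perivascular genes had a median of 0 CPM per cell at E11.5 (highest 329.8) and 72.7 at E10.5 (highest 2129), and that of 10 mesonephric and coelomic epithelium genes a median of 0 (highest 366.8) and 114.8 (highest 514), with 7 members of each list at 0 at E11.5. For 17 erythroid genes the medians were 236.3 and 119.4 CPM, with ranges of 0 to 976 and 5.62 to 1851. The part of such RNA in the results was not tested.

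The other batches did not repeat this difference as a group. Of the 14 general endothelial genes called lower in GL78, 6 were lower and 8 higher there, 0 were called lower and 2 called higher, and of the 7 arterial genes 3 were lower and 4 higher with none called. In GL53 at E11.5, Cdh5 stood at 199.3 CPM, Ramp2 at 167.03, Vwf at 450.5 and Esam at 337.1. In GL69 at E10.5 Cdh5 stood at 65.7, Ramp2 at 241.4 and Esam at 311.3 CPM. The most deeply sequenced GL69 cell held 1872895 of the 5405817 counts there, with Ramp2 at 635.4 and Esam at 806.8 CPM. The highest values in the other GL69 cells were 151.4 and 219.2 CPM. The GL69 sums of Ramp2 and Esam, and ratios over them, thus rest largely on that cell. The median log2 ratio of the general endothelial genes was 0.39 for GL53 and GL58 over GL69, opposite in sign to GL78, and that of the arterial genes was 0.08. A cell was counted as carrying the endothelial set when at least 2 of Cdh5, Ramp2, Cldn5, Kdr and Plvap reached 10 CPM. This rule was chosen after the values were seen. Cdh5, Ramp2, Cldn5 and Kdr were at 0 in all 15 E11.5 cells of GL78, so the count there follows from the choice of genes. By this count 0 of 15 E11.5 and 30 of 36 E10.5 cells of GL78 carried the set, and 11 of 22 in GL53, 0 of 2 in GL58 and 3 of 6 in GL69. In GL53 the cells were therefore divided, with Cdh5 at 10 CPM or more in 9 cells, Ptprc in 18 and both in 6. Among the 36 E10.5 cells of GL78, Cdh5 was at 10 CPM or more in 28, Ptprc in 14 and both in 6.

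**Figure D2:**
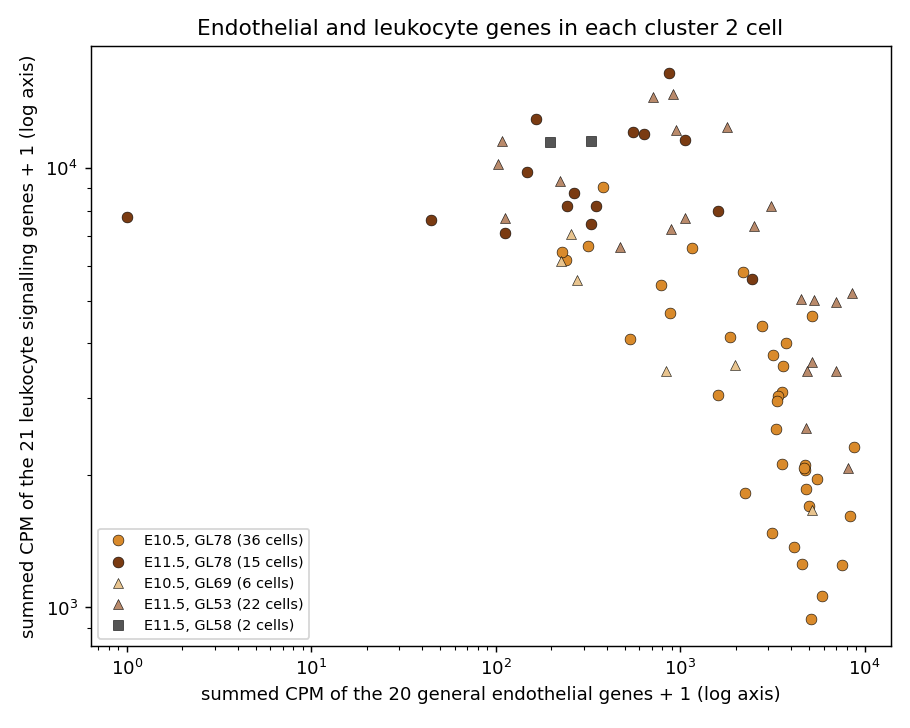
Summed CPM of the 20 general endothelial genes (horizontal) against the 21 leukocyte signaling genes (vertical), each plus 1 and on log axes, for every cluster 2 GFI1+ IAHC cell, by stage and batch. The E11.5 cells of GL78 lie at the upper left and most E10.5 cells of GL78 at the lower right. The GL53 cells reach from one to the other.

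Gfi1 itself, the gene behind the reporter, was lower at E11.5 in GL78. It had reads in 3 of 15 cells at E11.5 (highest 97.6 CPM) and in 26 of 36 at E10.5 (median 33.4, highest 325.8), or 15 CPM (12.6 to 17.7) against 76.6 (73.5 to 79.8), 5.11-fold lower. In the other batches it stood at 61.4 and 58.5 CPM. Gfi1b, its paralog of the megakaryocyte and erythroid lineages, had reads in 2 and 20 cells and 6.86 and 59.5 CPM. Kit, the stem cell factor receptor of the sort, had reads in every cell, at 998 CPM (978 to 1018) at E11.5 and 392 (385 to 399) at E10.5, and was called higher. Ptprc rose 8.79-fold, from 46.5 CPM (44.1 to 49) in 18 of 36 cells to 409 (396 to 422) in 14 of 15. Itga2b, which encodes CD41, stood at 82.7 and 99.2 CPM and was not called.

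Genes associated with hematopoietic stem cells were lower or not called. Of 19 measured members, 9 were called lower and 0 higher, with a median log2 ratio of -0.67. Fgd5, a stem cell reporter gene that endothelium also expresses, stood at 1.16 and 90.2 CPM, in 1 of 15 and 34 of 36 cells. Nkx2-3, a homeobox factor, stood at 2.95 and 72.2 CPM, in 1 and 27 cells. Procr, the endothelial protein C receptor, had 34.4 and 120.2 CPM in 2 and 24 cells, and Mecom, a stem cell transcription factor, 27.9 and 90.1 CPM in 4 and 29 cells. Adgrg1, which marks emerging hematopoietic cells, stood at 306.9 and 832 CPM, and Cdkn1c, an imprinted cell cycle inhibitor, at 72.9 and 252.2. Hlf (37.4 and 48 CPM), Mllt3 (45 and 57.1) and Hoxa9 (112.3 and 108.8) were not called, although their reads came from 4, 7 and 6 of 15 cells against 25, 31 and 28 of 36. Cells at E10.5 were sequenced more deeply, and with each cell thinned to 100000 counts these numbers were 3, 6 and 6 of 15 and 23, 28 and 28 of 36, those of Gfi1 were 3 and 24, and those of Gata2, described with the mast cell genes, were 8 and 33. In the other batches the list had a median log2 ratio of 0.45, with Procr at 235.5 and 94.5 CPM and Mecom at 90 and 142.3. Only Cdkn1c and Mecom, of the members named here as lower, were below -0.5 on the log2 scale there (-1.07 and -0.65).

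The hematopoietic transcription factors divided, with 20% called higher and 30% lower, beside 10.505% and 15.7% of all genes tested. Ikzf1, which encodes the lymphoid factor Ikaros, stood at 437 and 81.8 CPM, in 15 of 15 and 27 of 36 cells, and its relative Ikzf2 at 457 and 79. Both were called higher, as were Gata2 and Cbfb, and 6 of 20 were called lower. Those were Gfi1, Gfi1b, Tal1 (13.7 and 67.7 CPM), Zfpm1 (13.4 and 51.2), Nfe2 (54.6 and 183.3) and Etv6 (41.5 and 138.5), of which Tal1, Zfpm1, Nfe2 and Gfi1b act in the erythroid and megakaryocyte lineages. Runx1 (112.2 and 221.4 CPM), Myb (80.7 and 89) and Spi1 (237.9 and 308.6) were not called. Ikzf1 and Ikzf2 were also higher in the other batches (log2 ratios 1.70 and 1.64), whereas Gata2 (-0.20), Tal1 (0.66), Nfe2 (0.32) and Etv6 (0.76) did not keep their direction. Of 8 measured megakaryocyte genes 4 were called lower and 0 higher in GL78, among them the integrin gene Itgb3 at 34.5 and 206.1 CPM. All 4 were higher in the other batches, Itgb3 at 50.5 and 36.8 CPM, and the list median was -0.91 in GL78, 0.47 in the other batches and 1.69 outside cluster 2.

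Across all 9310 genes tested in GL78, 10.505% were called higher at E11.5 and 15.7% lower. Genes that were called higher and were also higher in the other batches made up 9.12% of those tested, and 6.19% were higher there by at least 2-fold. For genes called lower these shares were 8.85% and 3.21%. Of the genes called lower in GL78, 43.6% had the opposite sign in the other batches, against 12.8% of those called higher. Cdh5 and Kdr, but not Ramp2, Cldn5 or Gja4, were among the former. In the other batches taken alone, 13.7% of 9360 genes were called higher and 3.79% lower. Between the stages of the same plates, 3.81% of 9005 genes were called higher and 1.32% lower in the GFI1+ IAHC cells outside cluster 2 (74 and 51 cells), and 2.49% and 3.15% of 8980 in the GFI1+ hemogenic endothelium (40 and 91 cells). Whether these shares differ from those of cluster 2 was not tested.

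Leukocyte surface receptors and the histamine enzyme gene Hdc were among the genes with the largest increase in both sets of batches. Named by rule were the 12 called genes with the highest value of the smaller of both ratios: Gpr183, Ccr9, Trbc2, Slc45a3, Papss2, Kel, Hdc, Itgb7, Pirb, Clnk, Dennd1c and Pacsin1. Gpr183, an oxysterol receptor that positions lymphocytes and dendritic cells, is at GRCm38 chromosome 14:121952551-121965195 on the minus strand. It ran from 0 to 2405 CPM per cell at E11.5 (median 139.3, reads in 10 of 15 cells) and had reads in 1 of 36 cells at E10.5. The sums were 625 CPM (609 to 641) and 0.896 (0.591 to 1.3), and 9 of 15 E11.5 cells were above the highest E10.5 cell. In the other batches it stood at 258.5 and 0 CPM, and outside cluster 2 at 87.3 and 88.9.

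Ccr9, the chemokine receptor by which progenitors home to the thymus (chromosome 9:123678439-123784330, plus strand), had no read in 36 E10.5 cells and reads in 8 of 15 E11.5 cells, up to 865 CPM. Its sum of 195.2 CPM (186.4 to 204.3) was at least 1960.3-fold higher than the floor of 3 counts over the E10.5 cells. Trbc2, a constant segment of the T cell receptor beta locus, stood at 455 and 4.58 CPM, and Itgb7, an integrin of lymphocyte homing, at 297.4 and 4.08 in 12 and 3 cells. Hdc, the enzyme that makes histamine (chromosome 2:126593667-126619299, minus strand), stood at 2066 CPM (2038 to 2096) and 16.3 (14.9 to 17.8), 126.8-fold higher, with reads in 8 and 3 cells and a highest E11.5 cell of 9682 CPM. Clnk, an adaptor of immunoreceptor signaling in mast cells, stood at 35.9 and 0 CPM, and the inhibitory receptor Pirb at 140.4 and 1.59. The solute carrier Slc45a3 (282.1 and 0.232 CPM), the sulfate-donor enzyme Papss2 (109.5 and 0.531), the Kell blood group gene Kel (132.9 and 1.16), Dennd1c (204.6 and 5.05) and Pacsin1 (32.3 and 0) completed the 12. Since the rule used the other batches, their values there are no independent support. In these batches 6 of the 12 were called, and Slc45a3, Papss2 and Kel had reads in 2 of 24 E11.5 cells. In the annotation, exons of Ccr9, Slc45a3 and Dennd1c overlap those of other genes. For Ccr9 and Dennd1c some of these lie on the opposite strand (Slc6a20a and Crb3), from which reads cannot be told apart without a strand setting.

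The 12 genes lower at E11.5 by the same rule had low levels at E10.5. They were Lama4, Fxyd6, Igfbp2, Wwtr1, Fndc3c1, Sall3, Sall4, Akr1c14, Nckap1, Arpin, Gstm2 and Myl9, and except for Fndc3c1 (0.422 CPM) they had 0 counts at E11.5. Myl9, a contractile light chain of smooth muscle and endothelium, stood at 54.8 CPM at E10.5 (at least 173.02-fold lower at E11.5), Igfbp2, which binds insulin-like growth factors, at 35.8 (at least 112.9-fold) and Wwtr1, the Hippo pathway co-activator TAZ, at 29.6 (at least 93.4-fold). Lama4, a laminin of vessel basement membranes, stood at 26.7 CPM (at least 84.3-fold) and Sall4, a factor of pluripotent and early embryonic cells, at 17.2 (at least 54.2-fold). The E10.5 levels of the 11 genes at 0 ran from 11.7 to 54.8 CPM, in 9 to 22 of 36 cells. In the other batches 5 of the 12 were called and 7 were not. There Fxyd6, Igfbp2, Akr1c14, Arpin and Myl9 had reads in 1 of 6 GL69 cells.

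**Figure D3:**
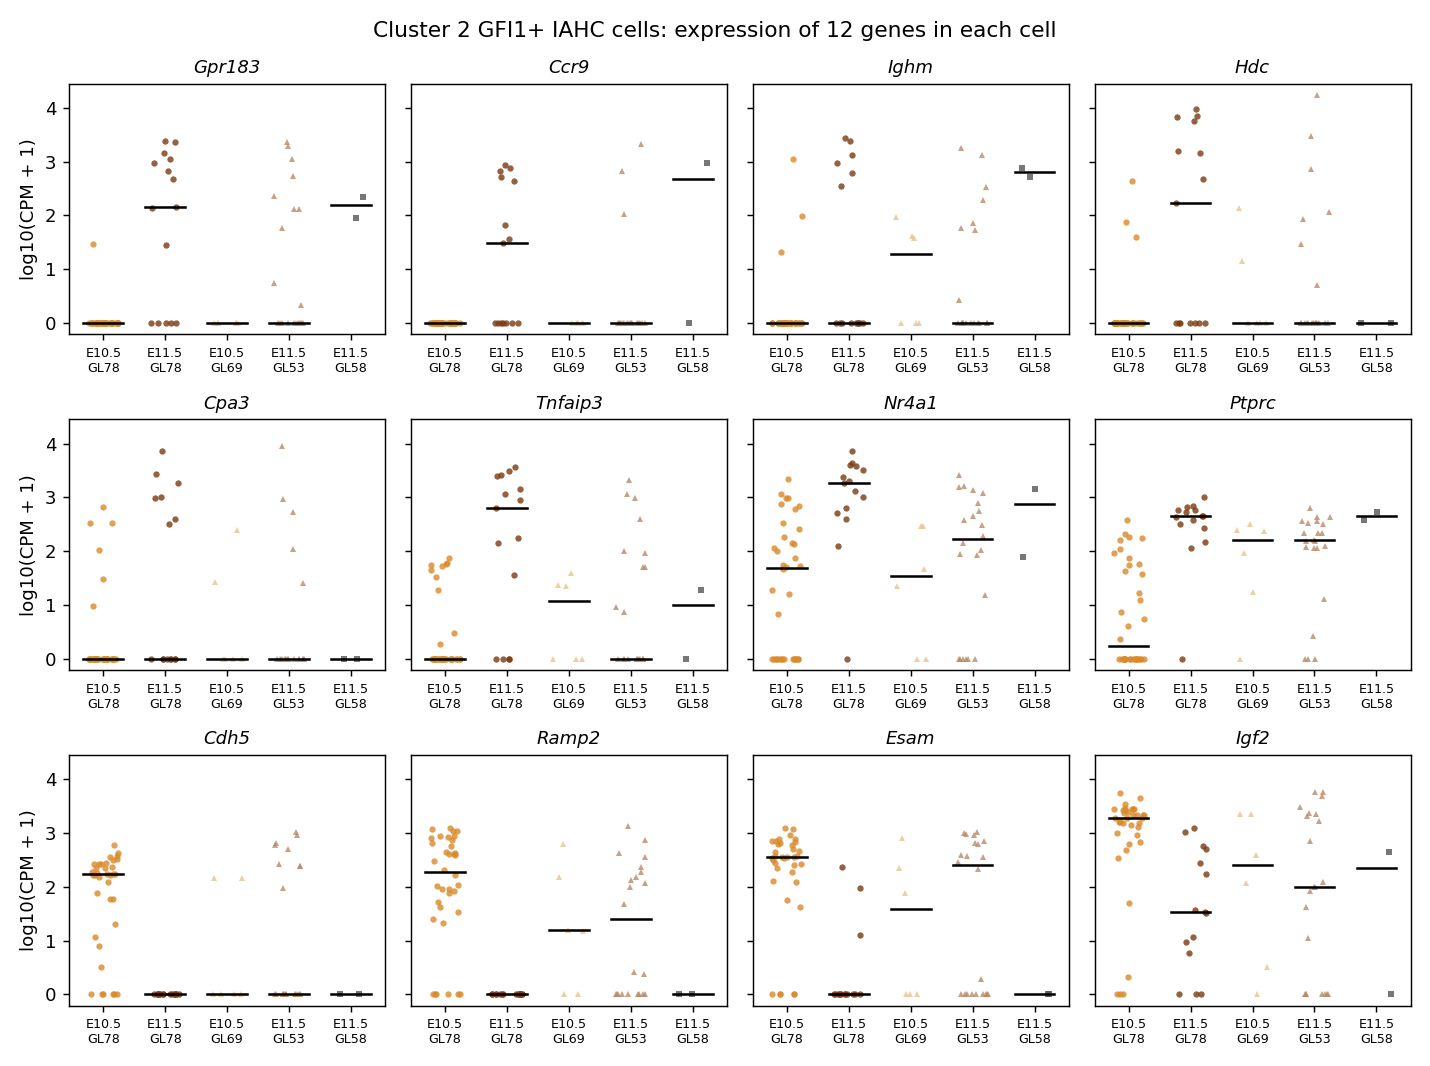
Expression of 12 genes in each cluster 2 GFI1+ IAHC cell as log10(CPM + 1), by stage and batch (E10.5 GL78, 36 cells; E11.5 GL78, 15; E10.5 GL69, 6; E11.5 GL53, 22; E11.5 GL58, 2), with a line at the median. Gpr183, Ccr9 and Hdc are at 0 in nearly all E10.5 cells, and Cdh5 and Ramp2 are at 0 in all 15 E11.5 cells of GL78 but not in GL53.

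The E11.5 cells of GL78 fell into cells with lymphoid transcripts and cells with mast cell transcripts. Of 16 measured lymphoid genes, 9 were called higher and 0 lower, with a median log2 ratio of 3.94 (2.48 to 4.35 with any 1 cell left out). Ighm, the immunoglobulin mu constant region, ran from 0 to 2746 CPM in 6 of 15 cells and stood at 599 and 37.4 CPM in sum. Il7r, the interleukin-7 receptor of lymphoid progenitors, had 70.7 and 0 CPM, with reads in 4 and 0 cells (at least 709.9-fold higher), and Rag2, of the recombinase that rearranges antigen receptors, had 12.8 and 0. Satb1, a chromatin organizer of lymphoid cells, was the most even, with reads in 15 of 15 and 12 of 36 cells and 196.8 and 12.1 CPM. The B cell genes Pax5, Blnk, Ebf1 and Cd79a each had reads in 1 or 2 of the E11.5 cells and were not called, although Pax5 stood at 26 CPM from a single cell. The cytokine receptor gene Flt3, of multipotent and lymphoid progenitors, stood at 199.03 and 13.7 CPM in 10 and 5 cells.

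Of 6 measured mast cell and basophil genes, 3 were called higher and 0 lower. Beside Hdc these were Cpa3, the mast cell carboxypeptidase, at 773 CPM (756 to 791) and 43.2 (40.9 to 45.6), with reads in 7 of 15 and 6 of 36 cells and a highest cell of 7176 CPM, and the factor Mitf at 12.3 and 0.996. Gzmb (105.95 CPM, 2 cells), the chymase gene Cma1 (23.4, 2 cells) and the tryptase gene Tpsb2 (40.8, 1 cell) had no read at E10.5 but came from too few cells to be called. The mast cell and basophil genes Fcer1a and Mcpt8 had no read at either stage, and Ms4a2 stood at 0.739 CPM from 1 E11.5 cell. Gata2, which mast cells require, had a median of 35.8 CPM at E11.5 and 124.1 at E10.5, with reads in 8 of 15 and 35 of 36 cells and highest cells of 4712 and 566 CPM. Its sum was 5.52-fold higher at E11.5 while fewer of the cells had it.

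At 10 CPM or more, all 8 E11.5 cells with Gata2 were the 8 cells with Hdc, and 7 of them also had Cpa3. Flt3 was at this level in 8 cells, Gata2 in 8, 1 cell had both and none had neither. Ccr9 was at this level in 8 cells, of which 6 had Ighm, 7 had Flt3 and 2 had Hdc. By a rule chosen after the values were seen, at least 2 genes of a set at 10 CPM, 6 of 15 cells carried the lymphoid set (Ccr9, Il7r, Rag1, Rag2 and Ighm), 7 the mast set (Hdc, Cpa3, Gzmb, Cma1 and Tpsb2), none both and 2 neither. At E10.5, 1 of 36 cells carried the lymphoid set, 2 the mast set and 33 neither, and Flt3 and Gata2 were there together in 4 of the 5 cells with Flt3. In GL53, 5 of 22 cells carried the lymphoid set alone, 3 the mast set alone, 1 both and 13 neither. Both GL58 cells carried the lymphoid set, and in GL69 1 of 6 cells carried each. Of the cells that carried the endothelial set above, 0 of 11 in GL53, 1 of 30 in GL78 at E10.5 and 1 of 3 in GL69 carried a lymphoid or mast set. Outside cluster 2, Hdc stood at 1.31 and 0.696 CPM and Ccr9, Il7r and Cpa3 below 0.1 at both stages.

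**Figure D4:**
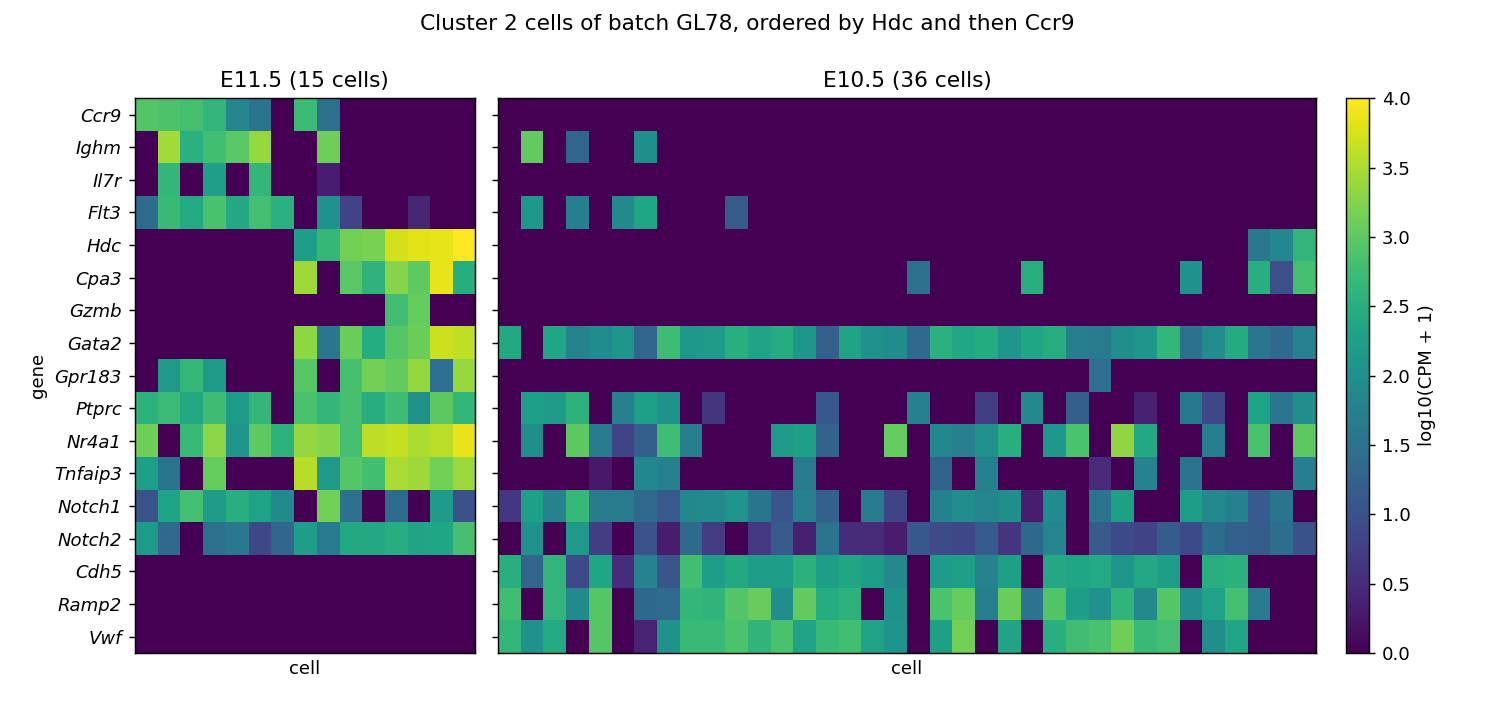
Expression as log10(CPM + 1) of 17 genes (rows) in the 15 E11.5 and 36 E10.5 cluster 2 GFI1+ IAHC cells of GL78 (columns, ordered by Hdc and then Ccr9 within each stage). Gata2 is present in 8 of 15 E11.5 cells, the same 8 as Hdc, and in nearly all E10.5 cells, and Cdh5, Ramp2 and Vwf are at 0 throughout E11.5.

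More myeloid granule and effector genes were called higher than lower. Of 11 measured, 5 were called higher, or 45.5% against 10.505% of all genes tested. Among them were the adaptor gene Tyrobp (639 and 80.4 CPM), the proteoglycan gene Srgn (503 and 63.5) and Plac8 (456 and 21.1). Called lower were Mpo, the myeloperoxidase of neutrophil granules, at 163.998 and 537 CPM in 7 of 15 and 27 of 36 cells, and Prtn3, proteinase 3, at 52.5 and 220.7 in 4 and 27 cells. Both were also lower in the other batches (log2 ratios -2.02 and -2.19). The share of this list called lower in GL78, 18.2%, was near the 15.7% of all genes tested. Of the macrophage genes, 6 of 14 were at 0 in all E11.5 cells. Cx3cr1, the fractalkine receptor, stood at 130.5 CPM in 6 cells at E11.5 and had 2 counts at E10.5, a ratio of 1966 with an exact interval of 543 to 16253. The other batches had it at both stages, at 69.3 CPM in 7 of 24 cells and 22.6 in 2 of 6. Csf1r, the macrophage colony-stimulating factor receptor, stood at 78.6 and 17.2.

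Genes shared by leukocytes were higher as a group. Of 21 leukocyte signaling genes 11 were called higher and 0 lower, with a median log2 ratio of 1.35 in GL78, 0.95 in the other batches and 0.32 outside cluster 2. The small GTPase gene Rac2 stood at 1081 and 223.8 CPM with reads in 15 of 15 and 16 of 36 cells, the tetraspanin gene Cd37 at 375.1 and 10.3, the exchange factor gene Vav1 at 330.8 and 47.9, and Lsp1, which binds actin, at 1286 and 91.1. Coro1a (1296 and 726) and Laptm5 (840.3 and 411), present in all cells of both stages, were not called. Of 18 hematopoietic surface genes 8 were called higher and 2 lower. Cd53 stood at 317.02 and 6.87 CPM and the selectin ligand gene Selplg at 270.5 and 28.2, whereas Spn, which encodes CD43, was lower at 2.53 and 23.6. Cytokine receptor genes were called higher for 6 of 19 and lower for 0, among them the common gamma chain Il2rg at 241.9 and 13.3. Of 12 chemokine and homing genes 6 were called higher, with the leukocyte integrins Itgal (192.8 and 18.4) and Itgb2 (196.2 and 29.3), and 2 lower, the broadly expressed integrins Itgb1 (101.7 and 222.2) and Itga6 (35.5 and 93.3).

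Antigen presentation and interferon genes were higher in part. Of 9 measured genes of MHC class I presentation, 6 were called higher and 0 lower. The class I genes H2-K1 (511 and 206.5 CPM) and H2-D1 (558 and 137.01) belong to a family of close copies among which reads can be shared. The immunoproteasome subunit gene Psmb8 stood at 65.6 and 3.62, and B2m, the class I light chain, at 540.4 and 309.2 without a call. The list had a median log2 ratio of 1.92 in GL78, 1.76 in the other batches and 0.73 outside cluster 2. Cd74, the class II invariant chain, stood at 51.7 and 0.697 CPM in 5 and 2 cells. Of 14 interferon response genes 3 were called higher and 0 lower, and Ifitm1 was the most abundant of these at 2555 and 199.99, while Ifitm2 (469 and 658) and Ifitm3 (113.9 and 212.2) were not called.

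Genes of the NF-kappaB response were higher at E11.5. NF-kappaB is a transcription factor family of immune and inflammatory signaling whose targets include its own inhibitors. Of 15 measured genes of the list, 7 were called higher and 1 lower, with a median log2 ratio of 2.40 in GL78, 2.41 in the other batches and 1.08 outside cluster 2. Tnfaip3, which encodes the feedback inhibitor A20, ran from 0 to 3735 CPM per cell at E11.5 (median 624) and from 0 to 72.9 at E10.5 (median 0), and 10 of 15 E11.5 cells exceeded every E10.5 cell. Its sums were 982 CPM (962 to 1002) and 10.49 (9.37 to 11.7), 93.6-fold higher. The E11.5 cells with Tnfaip3 at 3735, 3144, 2553 and 2514 CPM all had Hdc, and the highest without Hdc was at 1143. Nfkbia, the cytoplasmic inhibitor IkappaB alpha, stood at 2089.9 and 166.5, the co-activator gene Nfkbiz at 496 and 23.8, and the subunit gene Rel at 322.6 and 16.3. The chemokine genes Ccl3 (417 and 1.89 CPM) and Ccl4 (450.3 and 0.166) were called as well, though from 5 and 7 of 15 cells. The subunit genes Rela (105.5 and 74.9), Nfkb1 (199.1 and 103.8) and Nfkb2 (39 and 14.8) were not called, and the receptor gene Tnfrsf1a was lower at 27.4 and 104.7.

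The promoters of Nfkbia, Tnfaip3 and Rel are shown because they are the genes of this list called higher that hold the kappaB consensus, the binding motif of NF-kappaB, in the 250 bases before a start. It was searched on both strands, and overlapping matches were counted separately. The sequences are RefSeq's, build GRCm38.p6, each written 5′ to 3′ on the minus strand that carries the gene, with matches in capitals. That of Nfkbia is chr12:55492648-55492897 with 1 match, that of Tnfaip3 is chr10:19015411-19015660, before 1 of 2 listed starts, with 2 matches, and that of Rel is chr11:23770970-23771219 with 2 overlapping matches.
Nfkbia: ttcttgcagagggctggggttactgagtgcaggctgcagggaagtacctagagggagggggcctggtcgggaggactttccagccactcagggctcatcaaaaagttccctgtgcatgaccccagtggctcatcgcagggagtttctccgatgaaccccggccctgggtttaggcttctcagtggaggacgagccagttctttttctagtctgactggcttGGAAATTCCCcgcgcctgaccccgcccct
Tnfaip3: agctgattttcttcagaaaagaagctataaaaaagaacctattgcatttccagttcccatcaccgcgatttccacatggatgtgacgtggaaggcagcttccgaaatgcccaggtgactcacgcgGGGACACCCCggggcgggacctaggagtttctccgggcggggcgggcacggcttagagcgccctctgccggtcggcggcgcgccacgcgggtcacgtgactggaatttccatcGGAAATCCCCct
Rel: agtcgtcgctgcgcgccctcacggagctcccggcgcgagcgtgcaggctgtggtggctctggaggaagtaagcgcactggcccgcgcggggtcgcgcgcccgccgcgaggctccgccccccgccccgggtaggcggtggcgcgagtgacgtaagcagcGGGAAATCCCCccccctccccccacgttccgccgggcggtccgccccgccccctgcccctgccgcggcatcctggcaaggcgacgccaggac
Of the 15 measured list members, 11 had a promoter in the RefSeq table. A match lay before at least 1 start in 4 of these 11 (36.4%), and in 3 of the 5 called higher. Of all 27025 genes there, 8.23% had one. A match describes these letters and shows no binding, and the consensus was chosen with the values known. The list was itself put together from genes of the NF-kappaB response, so its share beside that of all genes is no independent support.

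Immediate early genes, which cells switch on within minutes of a stimulus, had a list median above 1 on the log2 scale at E11.5 in all 3 populations described from these plates. In cluster 2, 13 of 19 measured members were called higher and 0 lower. The nuclear receptor gene Nr4a1 ran from 0 to 7298 CPM at E11.5 (median 1873) and from 0 to 2155 at E10.5 (median 47.3), and Zfp36 (1059.5 and 80.1 CPM), Dusp1 (1406 and 170.4), Junb (1034 and 135.02) and Fos (1244 and 270.9) followed. Egr1, Jun and Ier2 were not called. The median log2 ratio was 2.20 in cluster 2 and 1.58 in the other batches, and on the GL78 plates 1.31 in GFI1+ IAHC outside the cluster and 1.20 in the GFI1+ hemogenic endothelium. Summed over the list, a cluster 2 cell of GL78 held 2355 to 31180.1 CPM at E11.5 (median 12963) and 405 to 12739 at E10.5 (median 2271), and GL53 cells had a median of 2801. The mitochondrial share moved with it in GL78, as given above, and its part in the result was not tested. Of 12 heat shock genes 0 were called higher and 2 lower (16.7%, near the 15.7% of all genes tested), with a median log2 ratio of -0.40.

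**Figure D5:**
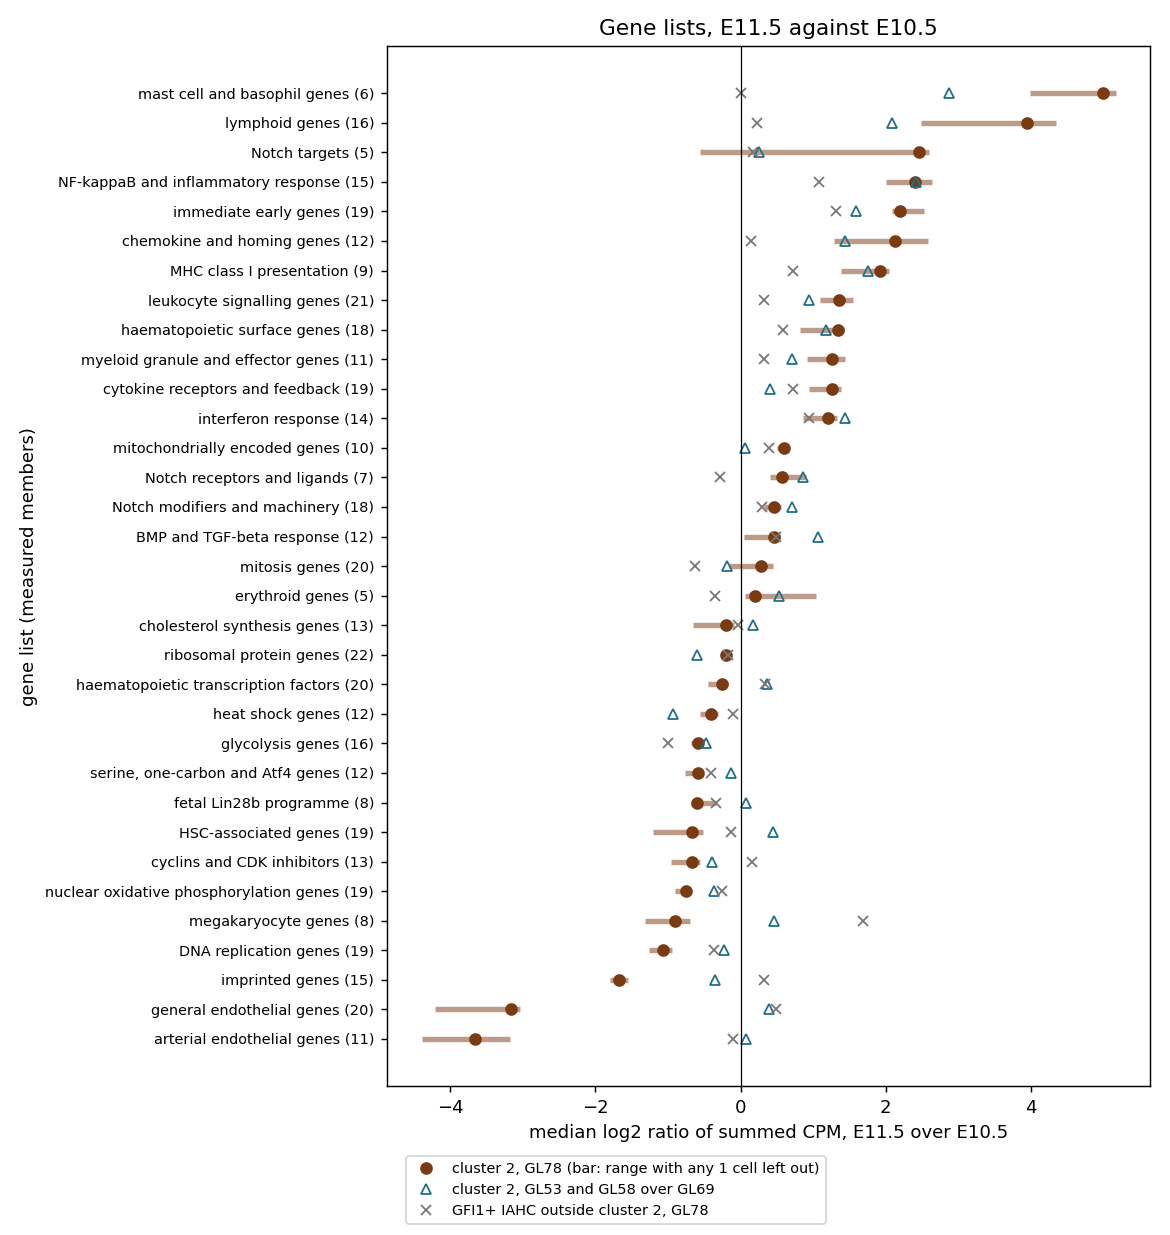
Median log2 ratio of summed CPM, E11.5 over E10.5, of gene lists with at least 5 measured members (numbers in brackets), for cluster 2 in GL78 (filled points, bar for the range with any 1 cell left out), cluster 2 in the other batches (triangles) and GFI1+ IAHC outside cluster 2 in GL78 (crosses). Lymphoid, mast cell, NF-kappaB and MHC class I lists are above 0 in both sets of batches, and the endothelial and arterial lists are far below 0 in GL78 alone.

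Of 7 measured Notch receptor and ligand genes, only the receptor gene Notch2 was called higher and only the ligand gene Dll4 lower at E11.5 in GL78. Each was 14.3% of them, beside 10.505% and 15.7% of all genes tested called higher and lower. Notch1 ran from 0 to 1389.8 CPM (median 78) at E11.5 and from 0 to 486 (median 43.5) at E10.5, with sums of 243.6 CPM (233.7 to 253.7) and 64.4 (61.6 to 67.4). It was not called, since its log2 ratio fell from 1.90 to 0.94 without 1 cell. Notch2 ran from 0 to 662 (median 148.6) and from 0 to 141.995 (median 7.16), and 8 of 15 E11.5 cells exceeded every E10.5 cell. Its sums were 157.6 and 17.7 CPM, 8.92-fold higher, and it was called. Among the E11.5 cells it ran from 44.8 to 662.5 CPM in those with Hdc and from 0 to 148.6 in those without. Notch3 (17 and 11.1) and Notch4 (12.8 and 9.4) were low at both stages. In the other batches Notch1 stood at 83 and 29.8 CPM and Notch2 at 56.8 and 30.9, while outside cluster 2 they stood at 136.8 and 135.9 and at 8.24 and 16.1.

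Of the ligands, Dll4 had reads in 0 of 15 and 14 of 36 cells and 0 and 32.8 CPM (at least 103.6-fold lower), which the other batches did not repeat (10.7 and 4.62). Jag1 was sparse, with reads in 5 of 15 and 11 of 36 cells and 19.4 CPM (16.7 to 22.4) and 9.2 (8.14 to 10.3), and was not called. Jag2 stood at 36.9 and 30.7. Of the targets, Hes1 was called higher at 156.8 CPM (148.9 to 165.003) and 12.6 (11.3 to 13.9), in 11 and 13 cells. In the E11.5 cells of GL78 it ran from 54.8 to 930 CPM in those with Hdc and from 0 to 178.4 in those without. Hes1 stood at 71.2 and 46.8 in the other batches. Gata2, the second target called higher, came from the Hdc cells as described. Hey1 (30.2 and 49.5) and Myc (118.9 and 230.2) were not called, and Dtx1 came from 1 cell at each stage. Of 18 modifier and machinery genes, the gamma-secretase gene Psen2 was called higher (310.6 and 51.5) and the glucosyltransferase gene Poglut1 lower (22.9 and 66). Each was 5.56% of them, below the shares of all genes tested. The fringe genes Rfng (43.4 and 32.3 CPM, reads in 4 of 15 and 28 of 36 cells) and Mfng (142.2 and 254.4), whose enzymes alter receptor and ligand affinity, were not called.

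Imprinted growth genes were lower at E11.5 in GL78. Igf2, an embryonic growth factor, had a median of 32.9 CPM and a highest cell of 1266 at E11.5 and a median of 1923 and a highest cell of 5547 at E10.5. The highest E11.5 cell lay below 25 of the 36 E10.5 cells. H19 stood at 469 and 1373 CPM, Plagl1 at 0 and 51.1 (at least 161.3-fold lower), and Mest at 4.54 and 64.4. Of 15 measured members 9 were called lower and 0 higher, with a median log2 ratio of -1.67, against -0.35 in the other batches, where Igf2 stood at 1228 and 1078 and H19 at 1778 and 1045, and 0.33 outside cluster 2.

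The annotation placed 8 of 15 E11.5 cells in G1, 0 in S and 7 in G2/M, and 15, 8 and 13 of 36 E10.5 cells. For 0 of 15 cells the exact binomial interval reaches 21.8%, and the E10.5 share of 22.2% had an interval of 10.1 to 39.2%. These intervals cover the drawing of cells within 1 sample only, so they cannot compare the stages, and the difference was not tested. Of 19 DNA replication genes, 8 were called lower and 0 higher, with the helicase subunit genes Mcm5 at 227.7 and 502 CPM and Mcm2 at 177.3 and 410.3, the loading factor gene Cdc6 at 16.9 and 84.9 and Tyms, thymidylate synthase, at 86 and 276.6. Of 20 mitosis genes, Top2a (759 and 254.6) and Kif23 (215.6 and 59.2) were called higher and none lower, a share of 10% against 10.505% of all genes tested, and the list median was 0.29 in GL78 and -0.19 in the other batches. The replication list had a median log2 ratio of -1.07 over all cells, -1.84 among cells in G1 and -0.23 in the other batches. Of 16 glycolysis genes 3 were called lower, among them the glucose transporter gene Slc2a1 (94.8 and 278.1 CPM), and 0 higher. This share, 18.8%, was near the 15.7% of all genes tested. The list had a median of -0.59, beside -0.47 in the other batches and -0.996 outside cluster 2. Nuclear oxidative phosphorylation genes had a median of -0.75, with 2 of 19 called lower, below the share of all genes tested. Ribosomal protein genes had a median of -0.20 with none of 22 called.

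Restricted to the cells with Xist reads, 14 at E11.5 and 12 at E10.5, the medians were -2.42 for general endothelial, 3.53 for lymphoid, 5.03 for mast cell, 2.76 for NF-kappaB, 2.30 for immediate early, -0.93 for stem cell-associated and -1.44 for imprinted genes, each with the sign it had over all cells. Not every list kept its sign. The median went from -0.26 to 0.008 for hematopoietic transcription factors, from 0.29 to -0.05 for mitosis and from 0.19 to -0.13 for erythroid genes. That of MHC class I presentation went from 1.92 to 1.27. The part of sex in the results was not tested.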

How the data were processed

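The authors deposited raw counts per gene for 860 cells, and their processing notes name STAR 2.7.3, HTSeq 0.9.1 and mm10. For the annotation release, the strand setting and duplicate handling, nothing is given in the sources used here. Filters of the authors on genes, counts and mitochondrial share left 775 cells, clustered with Scanpy 1.4.4 after depth, mitochondrial share and cell cycle were regressed out, without batch correction. The mitochondrial fraction, the clusters and the Cyclone phases were deposited in the annotation, with the fluorescence intensity of 9 index-sort signals as recorded by the sorter, some below 0 and compensation not stated. The deposited normalized table was not used. Symbols came from GENCODE M21 (GRCm38), and 0.0682% of the counts had none. Spike-in rows held 0 counts and were left out.

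For each stage and batch, counts were added over cells and scaled to CPM. The ratio was log2 of CPM plus 1 at E11.5 over E10.5. Folds are ratios of CPM, and where a stage had 0 counts they are bounds against 3 counts over its cells. A list member was measured at 10 CPM or more in a stage, and list medians needed 3 measured members. Named genes were, per direction, the 12 called genes with the same direction in the other batches and the highest smaller ratio, without unnamed, pseudo- or Y-linked genes, and the Notch, sort marker, stem cell and transcription factor genes. The members and the 41 gene lists (623 symbols, all found) were chosen with earlier results of these data known. Some genes belong to more than 1 list, as Gata2 does, so the results of the lists are not independent of each other. The steps were tested on simulated data. No test between stages was run. In GL78 each stage was 1 sample, and over all batches the 3 sums at E11.5 and 2 at E10.5 were not tested. Settings tried numbered 15, with Python 3.11.15, numpy 2.4.6 and scipy 1.17.1.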

Additional observations from a re-analysis of the deposited data

Results flagged for a closer look

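Among the lists with a median log2 ratio of 1 or more in size, 2 had the opposite sign in the GFI1+ IAHC cells outside cluster 2 on the same plates. The general endothelial genes had a median of -3.17 in cluster 2 and 0.49 outside it, and the imprinted genes -1.67 and 0.33. With 1 sample per stage in each population the difference was not tested.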

How the results depend on the processing

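Called genes are given as a percentage of those tested. Genes called higher at E11.5 (10.505%, 9310 tested) stayed within 1.5 times in number under 12 of 15 settings, and were 12.3% of 5159 tested with a minimum of 50 CPM, 5.81% at 3-fold and 17.4% when no cell was left out. Genes called lower (15.7%) made up 15.99% of 14793 tested with no share filter and 1 CPM, 11.6% at 50 CPM and 8.64% at 3-fold. These changes follow from the filter. They made up 5.44% with all batches summed, 3.79% for GL53 and GL58 over GL69 and 6.90% for GL53 and GL58 over GL78, and the cause was not tested. Of 39 list medians, 8 had the opposite sign in GL53 and GL58 over GL69. Of these, 2 were 1 or more in size in GL78, those of general and arterial endothelial genes (0.39 and 0.077 there). The other 6, smaller in GL78, were stem cell-associated (-0.67 to 0.45), megakaryocyte (-0.91 to 0.47), Lin28b programme (-0.60 to 0.08), hematopoietic transcription factor (-0.26 to 0.36), cholesterol synthesis (-0.20 to 0.17) and mitosis genes (0.29 to -0.19). The median of the 5 measured Notch targets was reversed in GL53 and GL58 over GL78 (-0.12), and ran from -0.56 to 2.59 in GL78 with any 1 cell left out. None of the 24 genes chosen by rank was reversed, which for GL53 and GL58 over GL69 the rule itself fixed. Their log2 ratio moved by more than its range with any 1 cell left out for 19 of them with a pseudocount of 5 CPM, 16 in GL78 over GL69, 15 in G1 cells, 12 in GL53 and GL58 over GL78 and 10 in GL53 and GL58 over GL69. Cells without Xist reads gave no value, as 1 was left at E11.5. No paired analysis was possible because the result comes from no test and no number pairs cells across stages. A gene with reads in fewer than 4 of 15 E11.5 cells could not be called higher, and a stage at 0 counts allowed a level of up to 0.317 CPM at E11.5 and 0.0996 CPM at E10.5.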
